A study of Mus musculus with 24 samples.

Results

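MEF2 (myocyte enhancer factor 2) transcription factors are encoded in the mouse by Mef2a, Mef2b, Mef2c and Mef2d, and their RNA was followed here in the nucleus accumbens. These 4 genes were taken by symbol from the deposited count table of 55401 gene IDs, and all 4 passed the filter on low counts that left 23738 genes to test. Mice were 8 to 9 weeks of age and of the strain C57BL/6J or DBA/2J, with the strain of each library not stated. Every mouse had received an AAV8 vector on both sides of the accumbens, either AAV8-hSyn-Egfp, named Gfp here, or AAV8-hSyn-Mef2c-Egfp, named Mef2c. The human synapsin promoter (hSyn) directs expression to neurons. Surgery on the left sciatic nerve was either the tibial form of spared nerve injury (SNI), used to model neuropathic pain that persists, or a sham operation that left the nerves intact. Surgery and vector together gave 4 groups of 6 libraries, SNI Mef2c and SNI Gfp after injury and Sham Mef2c and Sham Gfp after sham operation. The sources used here do not give sex, the time after surgery, the mice behind each library or the species and isoform of the vector's Mef2c, so p-values measure only the spread between these libraries.

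MEF2 proteins share a MADS box, through which they bind an AT-rich DNA element as dimers. In neurons, calcium entry activates them through calcineurin, which removes inhibitory phosphates, while class IIa histone deacetylases such as HDAC4 and HDAC5 hold them in a repressed state. They are known for controlling the number of excitatory synapses, including spines of accumbens medium spiny neurons. MEF2C is abundant in cortical excitatory neurons and is also made in parvalbumin interneurons, microglia and endothelial cells.

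The promoter windows of 3 members are shown because Mef2a and Mef2d varied together between libraries whereas Mef2c is the gene in the vector, as described further on. Each window runs from 250 bases before to 50 bases after a RefSeq start site (GRCm38.p6) and is written 5′ to 3′ on the gene's strand. The Mef2a window is chr7:67372809-67373108 on the minus strand, the Mef2d window chr3:88142122-88142421 on the plus strand and the first of 3 Mef2c windows chr13:83503784-83504083 on the plus strand. Capitals mark the match to the MEF2 consensus element.
Mef2a: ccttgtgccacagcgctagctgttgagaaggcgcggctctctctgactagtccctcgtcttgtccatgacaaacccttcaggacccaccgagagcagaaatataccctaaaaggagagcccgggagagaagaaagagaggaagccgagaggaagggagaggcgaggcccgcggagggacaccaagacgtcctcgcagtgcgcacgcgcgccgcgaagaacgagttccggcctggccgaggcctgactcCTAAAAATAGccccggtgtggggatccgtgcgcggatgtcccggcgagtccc
Mef2d: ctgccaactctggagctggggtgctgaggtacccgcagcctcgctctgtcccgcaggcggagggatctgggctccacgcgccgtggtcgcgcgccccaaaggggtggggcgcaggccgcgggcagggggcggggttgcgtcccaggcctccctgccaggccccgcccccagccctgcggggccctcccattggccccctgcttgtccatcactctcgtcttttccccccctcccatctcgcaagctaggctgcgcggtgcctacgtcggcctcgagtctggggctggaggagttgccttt
Mef2c: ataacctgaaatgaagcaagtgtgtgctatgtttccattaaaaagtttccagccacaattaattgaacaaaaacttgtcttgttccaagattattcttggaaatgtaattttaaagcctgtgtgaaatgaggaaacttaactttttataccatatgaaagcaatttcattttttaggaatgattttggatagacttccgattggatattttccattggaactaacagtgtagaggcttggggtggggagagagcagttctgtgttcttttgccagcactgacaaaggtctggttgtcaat

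The MEF2 consensus was searched on both strands. In the Mef2a window it was matched as CTAAAAATAG, whose first base lies at position -2 from the start site, so that the match spans the start. The windows of Mef2b, Mef2c (all 3 start sites) and Mef2d held no match, and 3.187% of the 32851 RefSeq windows of this length held at least 1. The GC content was 72% for Mef2d, 62.33% for Mef2a and 57% for Mef2b, against a median of 52.67% over all windows. The Mef2c windows held 35.67%, 47% and 48.33% GC, all below that median. The GC-box core CCGCCC, counted on both strands, occurred in the Mef2b and Mef2d windows and in the second Mef2c window, and in 35.66% of all windows. The cyclic AMP response element TGACGTCA, present in 1.79% of all windows, was found in none of the members' windows. These matches describe the sequences and were not tested for binding.

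All positions of genes are on mm10. Mef2a lies on chromosome 7 (67231163 to 67372858, minus strand), Mef2b on chromosome 8 (70139711 to 70167488, plus), Mef2c on chromosome 13 (83504034 to 83667080, plus) and Mef2d on chromosome 3 (88142372 to 88172086, plus). Reads had been counted over the whole span of a gene, introns included and without regard to strand, as the deposited values show. A gene whose span overlaps another therefore shares reads with it, which concerns 3 members. Lysmd4, a gene for a LysM-domain membrane protein on the opposite strand, covers 68.2% of the exon bases of Mef2a. Of its own exon bases, 12.7% lie inside Mef2a. It had more counts than Mef2a in 24 of 24 libraries (means of 145.5 and 127.2 CPM, counts scaled to a common library total). Gm44667, a predicted gene inside Mef2a, stood at 1.27 CPM. The spans of Mef2a and Lysmd4 share 76168 bp, and the counts do not tell which of these genes gave the shared reads. Values of Mef2a are thus uncertain.

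Mef2b is the other member with a large overlap. Borcs8, which encodes a subunit of the BORC complex that positions lysosomes, lies on the same strand, and 85.6% of its exon bases fall inside the annotated span of Mef2b. It stood at 9.73 CPM of the library total against 14.8 for Mef2b. As a share of the Mef2b value, Borcs8 took 65.0% in Sham Gfp, 65.2% in Sham Mef2c, 65.4% in SNI Gfp and 68.0% in SNI Mef2c (means, n = 6 each). Only 1 of the 5 annotated Mef2b transcripts starts inside Borcs8, and the other 4 start 5459 bp or more past its end. The values of Mef2b therefore consist largely of reads shared with its neighbour. Less the Borcs8 counts, mean CPM was 5.25 in Sham Gfp, 5.32 in Sham Mef2c, 5.20 in SNI Gfp and 4.52 in SNI Mef2c. The comparisons and correlations of Mef2b below use the value with the shared reads and do not measure Mef2b alone. At Mef2d, the antisense RNA 1700113A16Rik stood at 11.7 CPM beside 294.7 CPM for Mef2d. Mef2c overlapped no gene of at least 1 CPM.

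**Figure D1:**
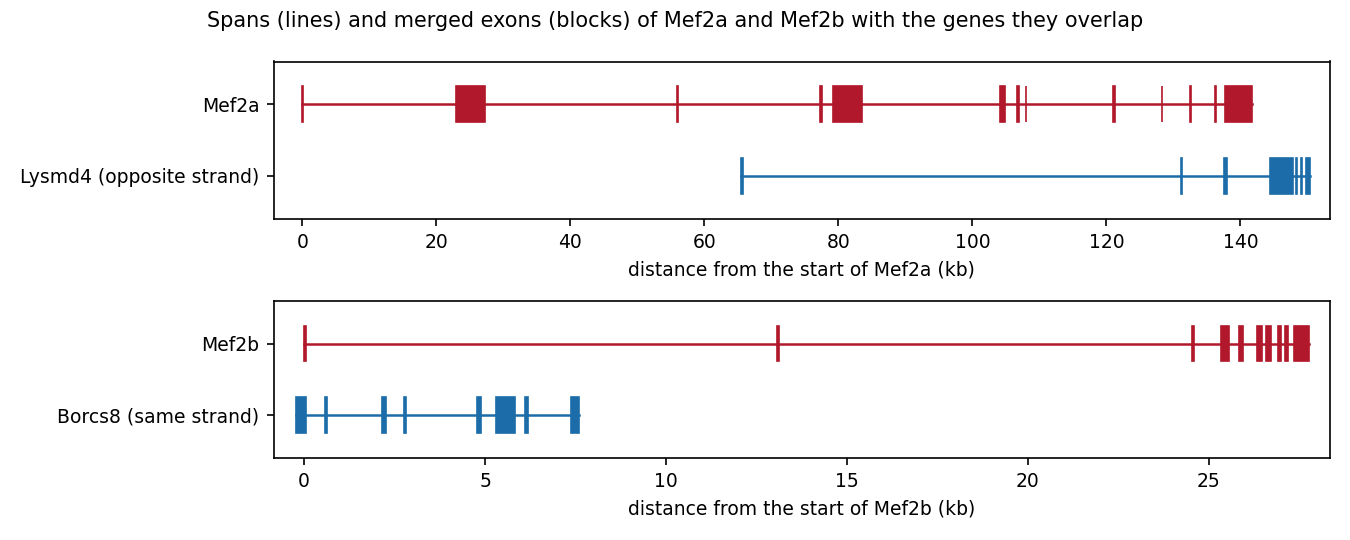
Maps of Mef2a with Lysmd4 and of Mef2b with Borcs8, as distance in kb from the start of the MEF2 gene, with lines for gene spans and blocks for merged exons. Lysmd4 covers 68.2% of the exon bases of Mef2a, whereas Borcs8 lies over the first part of the Mef2b span, ahead of most Mef2b exons.

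Per unit of annotated gene length, Mef2d was the most abundant member in Sham Gfp and in SNI Gfp. Deposited FPKM, which divide by the whole gene span, averaged 9.44 for Mef2d in Sham Gfp (SD 1.34, n = 6). They were 1.06 for Mef2c (SD 0.15), 0.923 for Mef2a (SD 0.105) and 0.549 for Mef2b (SD 0.033) in the same libraries, and the ranges of Mef2c and Mef2a overlapped. Dividing CPM by the merged exon length instead gave 46.9 CPM per kb for Mef2d, 10.95 for Mef2c, 10.86 for Mef2b and 8.91 for Mef2a. With all counts kept, the order of Mef2a and Mef2b thus depended on the length used. By exon length, Mef2c and Mef2b then did not differ beyond their spread (SD 1.57 and 0.65). These Mef2b values include the reads shared with Borcs8, which took 65.0% of them in Sham Gfp. Less the Borcs8 counts, Mef2b held 5.25 CPM there, so its place by exon length is uncertain and may be lower. In SNI Mef2c, Mef2c stood at 37.8 CPM per exon kb (SD 8.39) by the length of the mouse gene, and Mef2d at 53.7 (SD 0.98). The length of the vector's Mef2c is not given. With the Mef2c vector, the place of Mef2c per length is therefore uncertain. Counted without regard to length, Mef2c made up 28.8% of the family's CPM in Sham Gfp, 27.7% in SNI Gfp, 34.8% in Sham Mef2c and 55.5% in SNI Mef2c.

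Total counts per library lay between 25477019 and 36570108. Differential expression was fitted over all 24 libraries with edgeR's quasi-likelihood test, with Benjamini-Hochberg adjustment over all genes and a threshold of 0.05. For the Mef2c vector against the Gfp vector, 2233 genes passed in sham mice, or 9.41%, of which 1.48% of all genes were higher and 7.93% lower, and 1 gene passed in SNI mice, or 0.00421%. For SNI against sham, and for the interaction of surgery and vector, edgeR called no gene (0%) with either vector, beside 2928 genes (12.3%) at an unadjusted p under 0.05 with the Gfp vector, 3816 (16.1%) with the Mef2c vector and 3529 (14.9%) for the interaction. The vector comparison in SNI mice had 3383 (14.3%) at that level. DESeq2 called 553, 13 and 1 in these 3 cases. On the first principal component of all genes, SNI Gfp libraries 4 and 6 lay among the Sham Gfp libraries and apart from the other 4 of their group. Without both, edgeR called 0 genes for the vector in SNI mice, 1870 for SNI with the Gfp vector and 1494 for the interaction. Single libraries weighed on these counts. Without Sham Gfp library 3 the count in sham mice was 3602. The count in SNI mice was 379, 162 and 153 without SNI Gfp libraries 2, 5 and 1. The injury comparison with the Gfp vector had 1392 calls without SNI Gfp library 6, 880 without Sham Gfp library 3 and at most 1 without any other library, and the interaction had 269 calls without SNI Gfp library 6. Sample indices in the labels follow the groups, so any order of handling that followed them cannot be told apart from group. Striatal neuron markers, the check of the accumbens label, stood between 6.70 and 8.55 as mean log2 CPM, above the cortical markers (1.71 to 5.90) in every library.

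Mef2c, the gene in the vector, was the only gene that edgeR called between the vectors in SNI mice. Levels in this and the next paragraphs are CPM after scaling by the trimmed mean of M-values (TMM). In SNI Gfp it ranged from 132.7 to 221.1 CPM with a median of 152.4, and in SNI Mef2c from 474.1 to 832.3 with a median of 550.3. Every SNI Mef2c library therefore lay above every SNI Gfp library, and the highest values in SNI Mef2c were those of libraries 6 and 1. The log2 fold change was 1.86 (SE 0.26, 95% interval 1.33 to 2.39, edgeR adjusted p = 0.00627). An exact two-sided permutation test of log2 CPM gave p = 0.00216, the smallest that 6 against 6 libraries allow and 1 of 16 such tests over the members. Leaving out each library in turn kept the log2 fold change between 1.76 and 1.95, past the threshold each time. Without both SNI Gfp libraries 4 and 6 it was 1.92 (SE 0.30) and the call was lost (edgeR adjusted p = 0.0763).

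In sham mice the vector's own gene did not pass the test. Mef2c ranged from 138.9 to 212.1 CPM in Sham Gfp (median 168.3) and from 123.2 to 469.2 in Sham Mef2c (median 228.8). Of the 6 Sham Mef2c libraries, 3 lay above every Sham Gfp library (libraries 1, 3 and 6, at 469.2, 247.6 and 285.3 CPM), 2 lay below every one of them (libraries 2 and 5, at 125.1 and 123.2) and library 4, at 210.0, fell inside their range. The coefficient of variation was 52.7% in Sham Mef2c against 15.3% in Sham Gfp, 23.4% in SNI Gfp and 23.8% in SNI Mef2c. The log2 fold change in sham mice was 0.52 (SE 0.25, 95% interval 0.01 to 1.04, edgeR adjusted p = 0.229, exact permutation p = 0.264), and 0.24 without Sham Mef2c library 1. As a share of the family's CPM, Mef2c took 37.8% in library 4 against at most 32.3% in Sham Gfp, and 22.97% and 23.9% in libraries 2 and 5. The labelled vector was thus not visible as a raised Mef2c level in libraries 2 and 5, and the directions given below for the Mef2c vector in sham mice rest on libraries labelled so.

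Mef2c did not pass for surgery with the Gfp vector, where the log2 fold change of SNI against sham was -0.01 (SE 0.25, 95% interval -0.53 to 0.50, edgeR adjusted p = 0.995). With the Mef2c vector, all 6 SNI libraries lay above all 6 sham libraries, although SNI Mef2c library 2 (474.1 CPM) and Sham Mef2c library 1 (469.2) lay next to each other. The log2 fold change was 1.33 (SE 0.25, 95% interval 0.80 to 1.85), with an exact permutation p of 0.00216 and an unadjusted edgeR p of 2.73e-05. The edgeR p adjusted over all genes was 0.223, above the threshold. DESeq2 called Mef2c in this comparison as 1 of 13 genes (0.0549% of those it tested), with a log2 fold change of 1.33 and an adjusted p of 0.00029, and so did edgeR without Sham Mef2c library 1 (1.61, adjusted p = 0.0067). The interaction, which asks whether the vector's effect differed between SNI and sham mice, was 1.34 for Mef2c (SE 0.35, unadjusted p = 0.000984, edgeR adjusted p = 0.313). Without SNI Gfp libraries 4 and 6 it was 1.40 (SE 0.38) and passed (edgeR adjusted p = 0.0333). The comparisons of the vectors in SNI mice and of the surgeries with the Mef2c vector share the SNI Mef2c libraries. The counts do not separate RNA of the vector from RNA of the mouse's own gene. How much vector reached each mouse is not given. It cannot be told apart from surgery, here or in later comparisons of SNI against sham with the Mef2c vector.

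**Figure D2:**
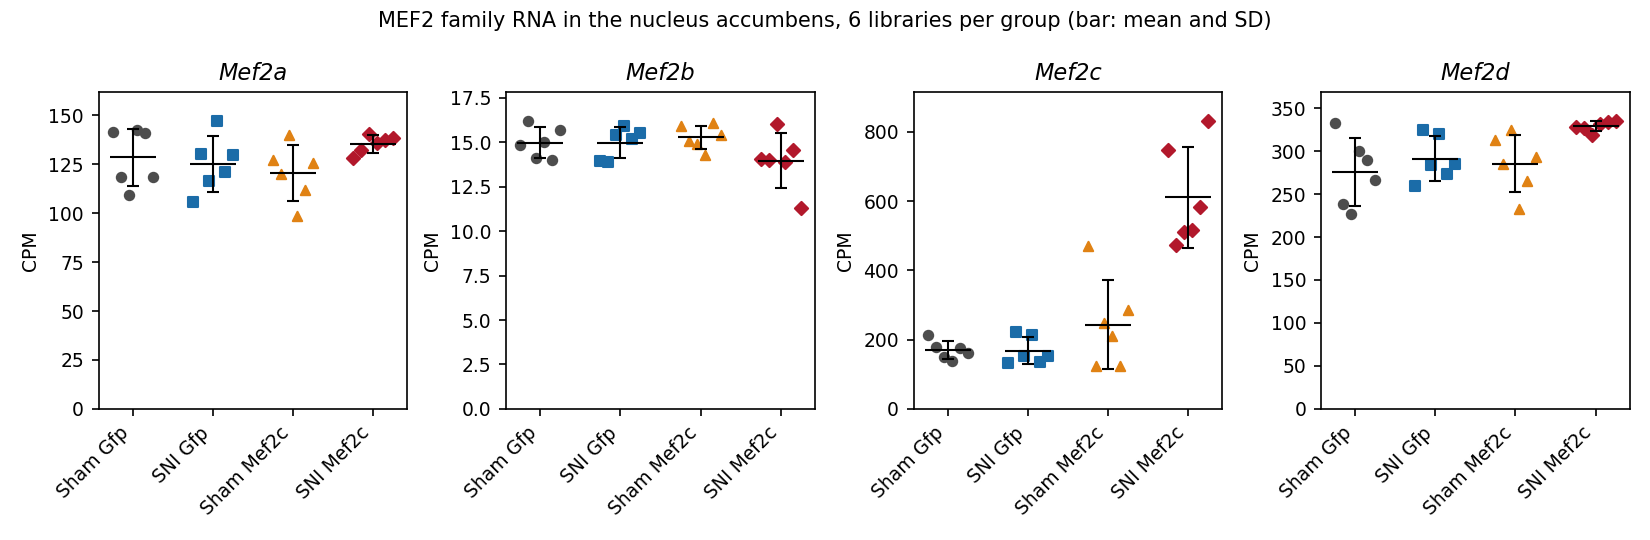
TMM-scaled CPM of each MEF2 gene in every library, with 6 libraries per group and bars for the mean and SD, each vertical axis starting at 0. Mef2c is at 474.1 CPM or more in the SNI Mef2c libraries and spreads from 123.2 to 469.2 CPM in Sham Mef2c, and Mef2d spans only 318.5 to 335.2 CPM in SNI Mef2c.

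Mef2d, the member with the highest level per length in the Gfp groups, was narrow and high in SNI Mef2c. It ranged from 226.7 to 333.1 CPM in Sham Gfp (median 278.0), from 232.9 to 324.0 in Sham Mef2c (median 288.7) and from 259.3 to 324.7 in SNI Gfp (median 284.4). In SNI Mef2c it ranged from 318.5 to 335.2 (median 329.7). Of the 6 SNI Mef2c libraries, 5 lay above every SNI Gfp library and 5 above every Sham Mef2c library, the exception in both cases being library 3. The coefficient of variation was 1.83% in SNI Mef2c against 8.93% to 14.5% in the other groups. The log2 fold change for the vector in SNI mice was 0.18 (SE 0.08, unadjusted edgeR p = 0.0482, edgeR adjusted p = 0.348, exact permutation p = 0.00649). For SNI against sham with the Mef2c vector it was 0.20 (SE 0.08, unadjusted edgeR p = 0.0241, edgeR adjusted p = 0.248, exact permutation p = 0.00433). Mef2d thus passed neither comparison over all genes. Its values for the vector in sham mice and for SNI with the Gfp vector were 0.05 (95% interval -0.13 to 0.23) and 0.08 (95% interval -0.10 to 0.25).

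Mef2a, a member made in brain and muscle, showed the same narrow spread in SNI Mef2c. It ranged from 109.3 to 142.3 CPM in Sham Gfp (median 129.7), from 98.8 to 140.0 in Sham Mef2c (median 122.7), from 105.6 to 147.2 in SNI Gfp (median 125.4) and from 128.3 to 140.3 in SNI Mef2c (median 136.5). All 4 groups overlapped. Its coefficient of variation was 3.25% in SNI Mef2c and 11.3% to 11.7% elsewhere. The largest of its log2 fold changes among the 4 comparisons of 2 groups was 0.17 for SNI against sham with the Mef2c vector (SE 0.08, 95% interval -0.003 to 0.34, edgeR adjusted p = 0.319, exact permutation p = 0.0260). Lysmd4, with which it shares reads, had coefficients of variation of 2.83% in SNI Mef2c and 7.88% to 9.05% elsewhere, and correlated with Mef2a at r = 0.985 over the 24 libraries. These shared reads mean that the spread of Mef2a alone was not measured.

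Mef2b, known mainly from germinal-centre B cells, had the lowest counts of the family, even with the reads it shares with Borcs8. It ranged from 14.0 to 16.2 CPM in Sham Gfp, 14.3 to 16.1 in Sham Mef2c, 13.9 to 15.9 in SNI Gfp and 11.3 to 16.03 in SNI Mef2c. The lowest value was that of SNI Mef2c library 6, the library with the highest Mef2c. Of the 6 SNI Mef2c libraries, 4 lay below every Sham Mef2c library. The log2 fold change between these groups was -0.13 (SE 0.06, 95% interval -0.26 to 0.002, edgeR adjusted p = 0.318, exact permutation p = 0.0606). In the remaining comparisons of 2 groups, edgeR gave log2 fold changes between -0.10 and 0.03 for Mef2b, with adjusted p of at least 0.474.

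**Figure D3:**
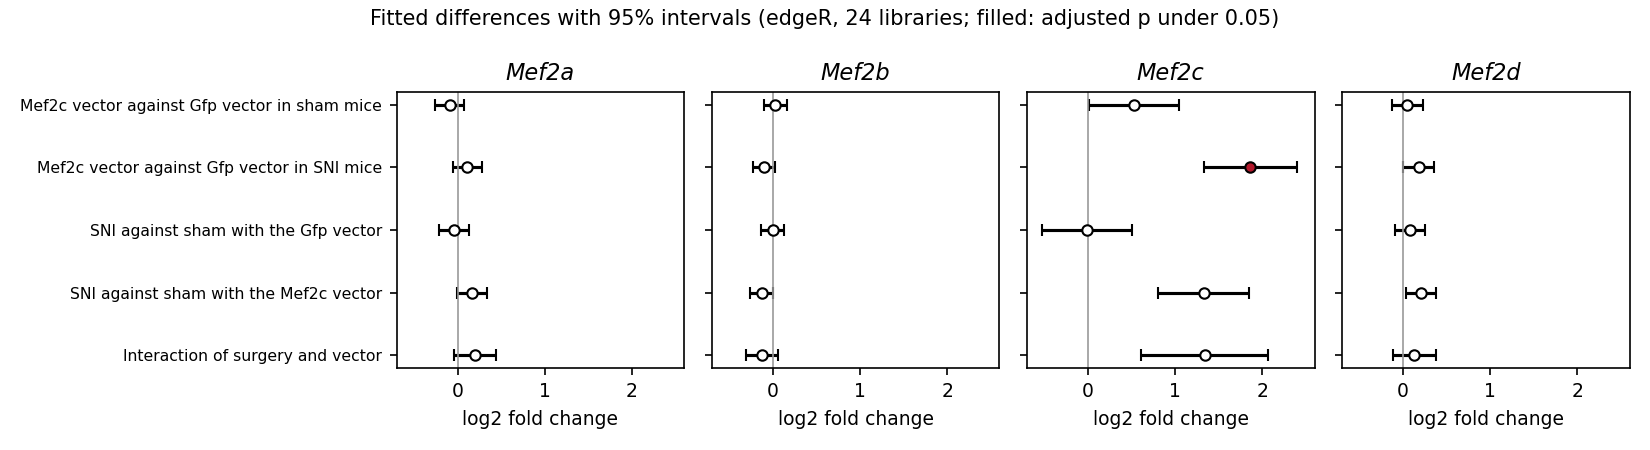
The log2 fold change of each MEF2 gene in each comparison, with 95% intervals from edgeR. The Mef2c vector in SNI mice moved Mef2c by 1.86, the only value past the threshold over all genes, and the intervals of Mef2a, Mef2b and Mef2d all lie within 0.5 of 0.

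A pair of markers of the dissected tissue was set beside the members. They were Slc17a7, which encodes the vesicular glutamate transporter of cortical excitatory neurons, and Ppp1r1b, which encodes DARPP-32 of striatal medium spiny neurons. Slc17a7 differed greatly between libraries of one group, from 8.50 to 318.2 CPM in Sham Gfp, 1.60 to 558.0 in SNI Gfp, 2.37 to 75.9 in Sham Mef2c and 4.10 to 1174.7 in SNI Mef2c. Ppp1r1b ranged from 286.1 to 599.5 CPM in Sham Gfp, 356.3 to 717.6 in SNI Gfp, 291.5 to 626.7 in Sham Mef2c and 315.5 to 726.6 in SNI Mef2c. Its reads are shared with 1700003D09Rik on the opposite strand, which had 239448 counts over all libraries against 390187 for Ppp1r1b. The mean log2 CPM of 13 cortical glutamatergic markers followed the same libraries, from 1.71 to 5.90. In a punch of tissue, fewer cells of a type and less RNA per cell cannot be told apart.

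In the 12 libraries with the Gfp vector, where Mef2c is the mouse's own, its log2 CPM correlated with that of Slc17a7 at r = 0.66 (permutation p = 0.0215, adjusted over 8 relations 0.0430) and rho = 0.69 (permutation p = 0.0153, adjusted 0.0305). Without the 2 libraries farthest from the median of Slc17a7, SNI Gfp 1 and 5, r was 0.48 (permutation p = 0.156). That r covers fewer libraries and a narrower range of Slc17a7. The relation did not pass without those samples. Within SNI Gfp r was 0.94 (exact permutation p = 0.00972) and within Sham Gfp 0.19 (exact permutation p = 0.721), so it did not hold within both groups. The difference between these groups was not tested. In Sham Gfp, library 2 had the second highest Mef2c (178.6 CPM) at 8.50 CPM of Slc17a7, and library 4 the lowest Mef2c (138.9) at 163.0 CPM of Slc17a7.

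With the striatal marker Ppp1r1b, Mef2c correlated at r = 0.59 (permutation p = 0.0470, adjusted over 8 relations 0.0753) and rho = 0.59 (permutation p = 0.0466, adjusted 0.0622), which did not pass the adjustment. Without SNI Gfp 2 and Sham Gfp 3, the farthest from the median of Ppp1r1b, r was 0.46 (permutation p = 0.178). Within SNI Gfp r was 0.89 (exact permutation p = 0.00139) and within Sham Gfp 0.34 (exact permutation p = 0.515). Both markers also went together in these 12 libraries (r = 0.54, rho = 0.65), so a relation of Mef2c with either one was not separated from the other.

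**Figure D4:**
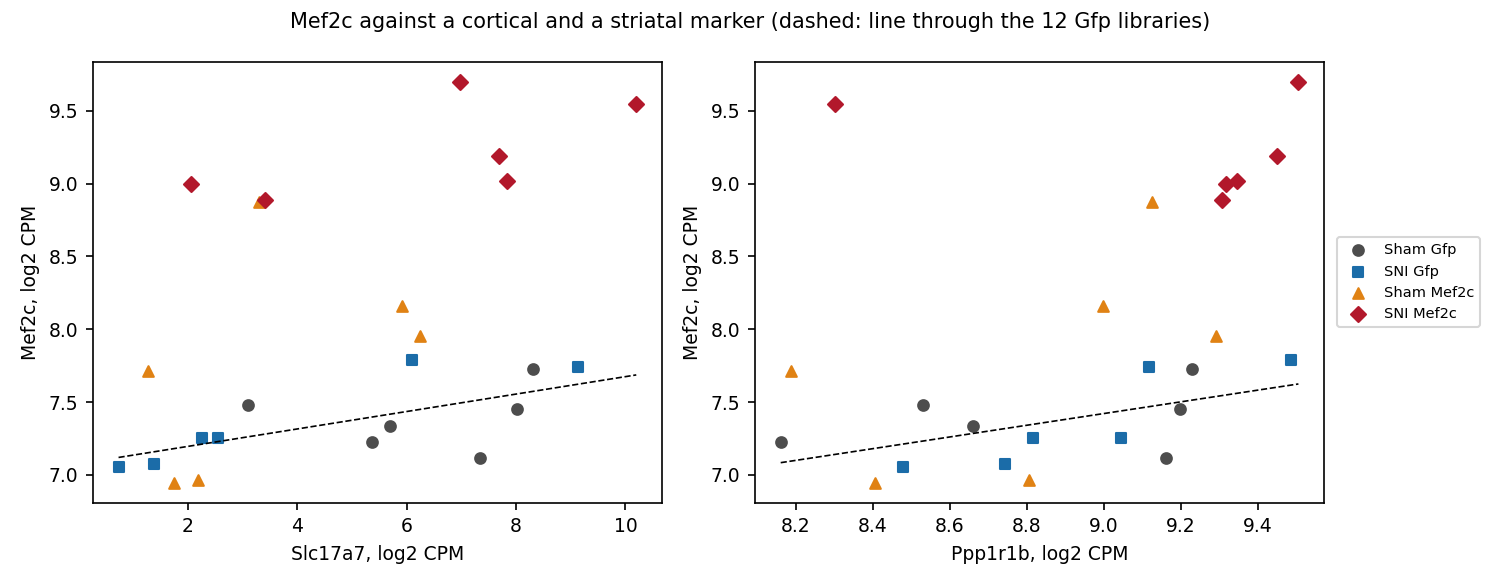
Log2 CPM of Mef2c against that of Slc17a7 (left) and Ppp1r1b (right) in all 24 libraries, with a dashed line through the 12 Gfp libraries. The SNI Mef2c libraries lie 1.47 to 2.21 above the left line, whereas Sham Mef2c libraries 2 and 5 lie just below it.

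Mef2d followed Ppp1r1b more closely than any other of the 8 relations by r and rho. Over the 12 Gfp libraries r was 0.93 (permutation p = 3e-05, adjusted over 8 relations 0.00024) and rho 0.96 (permutation p = 1e-05, the smallest that these permutations can give, adjusted 8e-05). It was 0.88 without SNI Gfp 2 and Sham Gfp 3 (permutation p = 0.00037), 0.94 within Sham Gfp (exact permutation p = 0.00556) and 0.93 within SNI Gfp (exact permutation p = 0.00139). With Slc17a7, r was 0.55 for Mef2d (permutation p = 0.0668, adjusted 0.0891) and rho 0.67 (permutation p = 0.0203, adjusted 0.0325). That r stood at 0.54 without SNI Gfp 1 and 5 (permutation p = 0.112), at 0.85 within Sham Gfp (exact permutation p = 0.0361) and at 0.92 within SNI Gfp (exact permutation p = 0.0111).

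Mef2a, with the reads it shares with Lysmd4, correlated with both markers. With Ppp1r1b, r was 0.84 (permutation p = 0.00081, adjusted over 8 relations 0.00324) and rho 0.81 (permutation p = 0.00201, adjusted 0.00804). That r was 0.93 without SNI Gfp 2 and Sham Gfp 3, 0.99 within Sham Gfp (exact permutation p = 0.0153) and 0.75 within SNI Gfp (exact permutation p = 0.0931). With Slc17a7, r was 0.77 (permutation p = 0.00563, adjusted 0.0150) and rho 0.78 (permutation p = 0.00447, adjusted 0.0119). It was 0.71 without SNI Gfp 1 and 5, 0.80 within Sham Gfp (exact permutation p = 0.0819) and 0.86 within SNI Gfp (exact permutation p = 0.0222). Mef2b, with the reads it shares with Borcs8, gave r = -0.06 with Slc17a7 (permutation p = 0.858, rho 0.01). With Ppp1r1b it gave r = -0.08 (permutation p = 0.805, rho -0.27), and none of these passed.

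**Figure D5:**
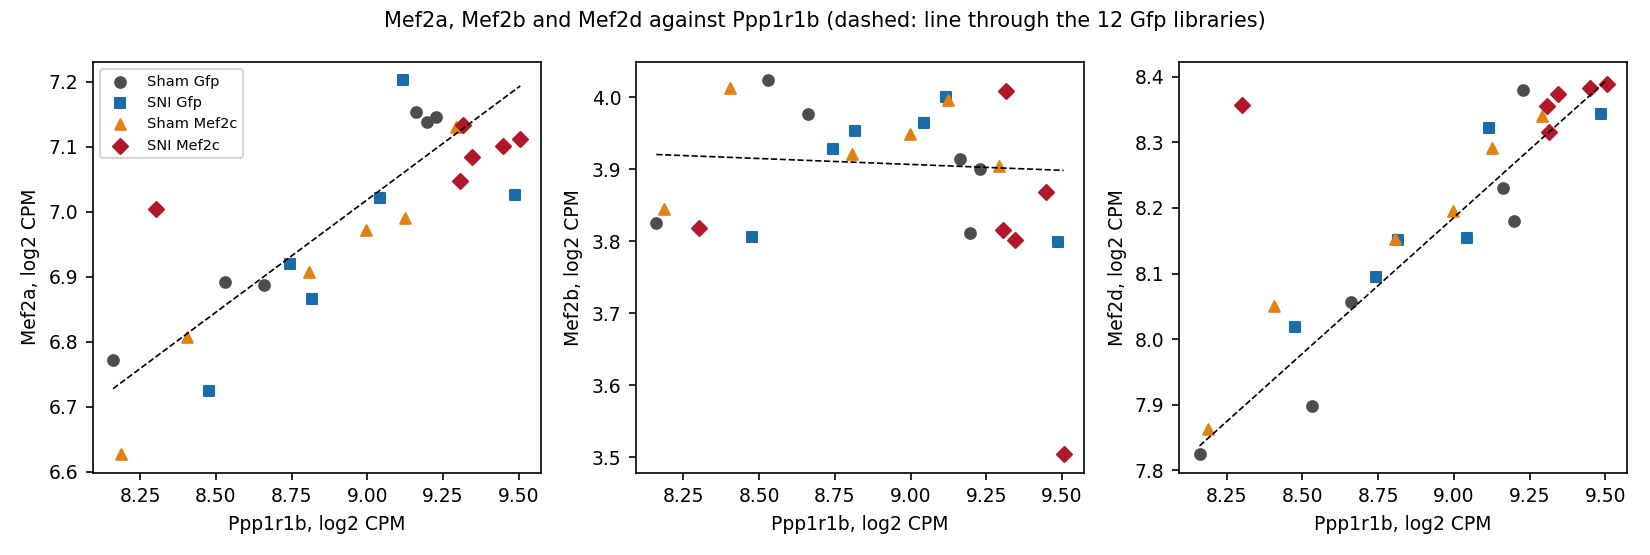
Log2 CPM of Mef2a, Mef2b and Mef2d against that of Ppp1r1b in all 24 libraries, with lines through the 12 Gfp libraries. Mef2a and Mef2d climb with Ppp1r1b (r = 0.84 and 0.93), Mef2b does not (r = -0.08), and SNI Mef2c library 1, lowest of its group in Ppp1r1b, lies 0.46 above the Mef2d line.

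The lines through the Gfp libraries give a level of Mef2c at each marker level against which the vector libraries can be read. Relative to the line with Slc17a7, whose residual SD was 0.21 log2 units, the 6 SNI Mef2c libraries lay 2.77- to 4.62-fold higher. Of the Sham Mef2c libraries, library 1 lay 3.03-fold higher, libraries 3, 4 and 6 1.42-, 1.48- and 1.65-fold higher, and libraries 2 and 5 at -0.24 and -0.23 log2 units, slightly more than 1 residual SD below the line. Relative to the line with Ppp1r1b (residual SD 0.22), the SNI Mef2c libraries lay 2.54- to 5.30-fold higher. Sham Mef2c libraries 1, 3, 4 and 6 lay 2.64-, 1.33-, 1.54- and 1.67-fold higher than that line, and libraries 2 and 5 at -0.38 and -0.24 log2 units. Mef2c in every SNI Mef2c library thus stood above what the marker level of the Gfp libraries gave, by either marker.

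The markers were also entered as covariates beside the 4 groups, over all 24 libraries. Per log2 unit of Ppp1r1b, Mef2d changed by 0.29 (SE 0.05, edgeR adjusted p = 9.86e-05) and Mef2a by 0.29 (SE 0.05, edgeR adjusted p = 3.32e-05), in a fit where 33.2% of all genes passed. Per log2 unit of Slc17a7, they changed by 0.04 (SE 0.01, edgeR adjusted p = 0.00814) and 0.03 (SE 0.01, edgeR adjusted p = 0.0189), where 17.9% of all genes passed. Mef2c changed with neither past the threshold (0.08 per unit of Slc17a7, edgeR adjusted p = 0.0815, and 0.36 per unit of Ppp1r1b, edgeR adjusted p = 0.215), nor did Mef2b (-0.01 with either marker).

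With the markers held level, Mef2c kept its call for the vector in SNI mice, at 1.66 with Slc17a7 (edgeR adjusted p = 0.0183), 1.81 with Ppp1r1b (edgeR adjusted p = 0.00767) and 1.63 with both (edgeR adjusted p = 0.0429). In sham mice its value was 0.74 with Slc17a7 (edgeR adjusted p = 0.0589), 0.50 with Ppp1r1b (edgeR adjusted p = 0.181) and 0.69 with both (edgeR adjusted p = 0.0637). The value of Mef2d for the vector in SNI mice was 0.08, 0.11 and 0.06 in these 3 fits, beside 0.18 without covariates. For SNI against sham with the Mef2c vector it was 0.10, 0.10 and 0.05 beside 0.20, and that of Mef2a was 0.08, 0.06 and 0.02 beside 0.17. The differences of Mef2d and Mef2a involving SNI Mef2c were thus smaller in each fit that held a marker level. Those without SNI Mef2c were not all smaller. For the vector in sham mice, Mef2d was 0.16, 0.06 and 0.13 beside 0.05, and Mef2a 0.003, -0.09 and -0.03 beside -0.09. For SNI with the Gfp vector, Mef2d was 0.18, 0.05 and 0.12 beside 0.08, and Mef2a 0.05, -0.07 and -0.01 beside -0.04. The cause of these shifts was not tested.

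Other cell types that make Mef2c were read from their markers. The 12 microglial markers averaged 5.03 log2 CPM in Sham Gfp (4.91 to 5.24), 4.53 in Sham Mef2c (4.42 to 4.83), 4.70 in SNI Gfp (4.41 to 5.06) and 4.57 in SNI Mef2c (4.50 to 4.72). In sham mice, 8 of 12 were lower with the Mef2c vector and 1 higher, beside 12 of 12 interferon genes that were lower. Over all genes, 7.93% were lower and 1.48% higher in that comparison. The mean levels of Sham Gfp and Sham Mef2c did not overlap for either list (interferon genes at 3.80 to 5.82 and 1.22 to 1.77 log2 CPM). SNI Gfp spanned 1.34 to 4.98 log2 CPM in the interferon genes, with libraries 4 and 6 at 4.06 and 4.98, and SNI Mef2c spanned 1.17 to 1.89. Of 8 astrocyte markers 2 were lower with the Mef2c vector in sham mice, the glial filament gene Gfap (-1.87, SE 0.43, edgeR adjusted p = 0.00458) and the water channel gene Aqp4 (-0.64, SE 0.17, edgeR adjusted p = 0.014). For the vector in SNI mice 0 of 12 microglial markers passed, where 0.00421% of all genes did. At an unadjusted edgeR p under 0.05 stood 6 of these 12, with a median log2 fold change of -0.23 over the list. So did 12 of 12 interferon genes (median -2.05), beside 14.3% of all genes. Endothelial markers (8 genes) averaged between 4.46 and 4.60 in every group, with 1 lower in sham mice, and interneuron markers (9 genes) between 5.58 and 5.67 with none passing. Their part in the Mef2c values was not tested.

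The genes whose pattern was most like that of Mef2c were sought among 12464 genes with at least 5 CPM, by Pearson r of log2 CPM after subtracting group means over the 12 Gfp libraries. These points share library and depth, and the values are given as a description. The highest were Slc25a44, Arl6ip5, Hba-a1, Xpnpep1, Slc35c1, Mydgf, Srd5a3, Cdipt, Taldo1 and Kmt5a, with r from 0.926 to 0.878. Hba-a1 encodes alpha globin of red blood cells and has a near-identical copy, which makes its count uncertain. The lowest were Wdr35, Mttp, Rtl1, Plod2 and Inpp5f, from -0.934 to -0.898. On this measure Slc17a7 ranked 397 (r = 0.721), Mef2d 1096, Ppp1r1b 1239 (0.608), Mef2a 1586 (0.569) and Mef2b 6030 (0.057). Over the 12 libraries with the Mef2c vector, the 5 genes most like Mef2c were Alkbh2, Cic, Cdkn1a, Ptp4a2 and P2ry13 (r from 0.865 to 0.834). P2ry13 lies within Med12l and Alkbh2 overlaps Usp30, each with more counts, so both are uncertain.

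The other members had different nearest genes. For Mef2d they were Foxk2, Wasf1, Fam78b, Prrt1 and Slk (r from 0.981 to 0.971), with Ppp1r1b at rank 213 (r = 0.931). For Mef2a they were Rmnd5b, Exoc6, Mmd, Rock2 and Kcnv1 (r from 0.985 to 0.973), with Ppp1r1b at rank 442 and Mef2d at rank 535 (r = 0.867). For Mef2b, at lower likeness, they were Bmpr1a, Angpt1, Lrif1, Zbtb5 and Nlrp3 (r from 0.845 to 0.823).

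Genes known to act on MEF2 proteins were counted next, a list of 20 that holds the class IIa deacetylases, calcineurin subunits, kinases and coactivators, of which 19 were tested. For the Mef2c vector in sham mice 1 of 19 was higher and 0 lower, where 1.48% of all genes were higher and 7.93% lower. The median log2 fold change was 0.07 beside 0.02 over all genes. The gene called was Carm1, an arginine methyltransferase that acts as a MEF2 coactivator. Its mean was 77.5 CPM with the Gfp vector (SD 1.61) and 84.7 with the Mef2c vector (SD 2.38), a log2 fold change of 0.13 (SE 0.03, edgeR adjusted p = 0.00154) that passed in all 24 fits leaving out a library. Carm1 shares reads with Yipf2 on the opposite strand (62936 and 15749 counts over all libraries). In the other comparisons 0 of 19 passed by edgeR. Of all genes, 0.00421% passed for the vector in SNI mice and 0% otherwise. At an unadjusted p under 0.05 stood 3 for the vector in SNI mice, 1 for SNI with the Gfp vector and 5 for SNI with the Mef2c vector. Over all genes, 14.3%, 12.3% and 16.1% stood at that level. The medians there were 0.05, 0.03 and 0.06. The calcineurin subunits Ppp3cb and Ppp3r1 had the smallest p in SNI mice between the vectors (0.19 and 0.24, edgeR adjusted p = 0.160 and 0.237) and again for SNI with the Mef2c vector (0.18 and 0.26). Ppp3r1 is uncertain, since Wdr92 overlaps it with 206718 counts against 210485. For SNI with the Gfp vector, Carm1 stood at 0.12 (edgeR adjusted p = 0.0929) and the deacetylase gene Hdac5 at 0.10 (0.714).

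Of 20 genes known as neuronal MEF2 targets, all tested, 2 were higher and 1 lower for the Mef2c vector in sham mice, with a median of 0.001. Of all genes, 1.48% were higher and 7.93% lower in that comparison, and whether the list differs from this share was not tested. Adgrl3, a synaptic adhesion receptor of the latrophilin family, rose from 151.9 to 180.3 CPM (log2 fold change 0.25, SE 0.07, edgeR adjusted p = 0.0267). Nlgn3, a postsynaptic neuroligin that overlaps Gm21986 on its strand, rose from 89.2 to 97.6 CPM (0.13, SE 0.04, edgeR adjusted p = 0.0285). Cdkn1a, the cell-cycle inhibitor p21, fell from 19.4 to 11.9 CPM (-0.71, SE 0.21, edgeR adjusted p = 0.0364). These 3 calls were lost with the Slc17a7 covariate. Adgrl3 and Nlgn3 also lost theirs with both covariates and with library size alone, Nlgn3 and Cdkn1a without the filter on low counts, and Cdkn1a with the replicate block (-0.67). They were lost without single libraries as well, Adgrl3 without Sham Gfp 1, 4 or 5 or Sham Mef2c 6, Nlgn3 without Sham Gfp 5 or 6 or Sham Mef2c 2, 3 or 5, and Cdkn1a without Sham Gfp 1, 2, 5 or 6 or Sham Mef2c 2, 4 or 5.

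In SNI mice Mef2c was the 1 gene (0.00421%) that edgeR called between the vectors, so 0 of 20 targets passed. At an unadjusted p under 0.05 stood 5, beside 14.3% of all genes. Their median was 0.15, for all 20, beside a median near 0 over all genes. The smallest p belonged to Nlgn3 (0.13, SE 0.04, edgeR adjusted p = 0.147) and Lgi1, a secreted synaptic protein (0.19, edgeR adjusted p = 0.199). With the Mef2c vector, SNI against sham gave 0 of 20 by edgeR, where 0% of all genes passed. At an unadjusted p under 0.05 stood 6, beside 16.1% of all genes, and the median was 0.13. Kcna1, a potassium channel gene, stood at 0.48 and Jph3, a junctophilin gene, at 0.20 (edgeR adjusted p = 0.223 each). Jph3 is uncertain, as it overlaps Gm20388, which had more counts. With the Gfp vector, SNI against sham gave 0 of 20, again where 0% of all genes passed, and a median of -0.001. At an unadjusted p under 0.05 stood 0, beside 12.3% of all genes. Tissue markers differed between the same groups, with cortical markers at a mean of 3.63 log2 CPM in SNI Mef2c against 2.601 in SNI Gfp and 2.47 in Sham Mef2c, and striatal markers at 8.12 against 7.91 and 7.79. Their part in the values of the targets was not tested. Cdkn1a stood at 0.23 for the vector in SNI mice (95% interval -0.20 to 0.67) beside its fall in sham mice, and the test of that difference, the interaction, gave 0.94 (SE 0.30, unadjusted p = 0.00473, edgeR adjusted p = 0.313). No gene at all passed for the interaction by edgeR (0%), and so no member of either list.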

How the data were processed

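Bulk mRNA-seq libraries of mouse nucleus accumbens, 6 per group, were read from 2 tables. The authors deposited raw counts per gene, made with featureCounts on mm10 per the submitters' processing notes, and FPKM values computed from them. The sources used here give no aligner, annotation or version of featureCounts. In the deposited FPKM table the length behind a value was the gene span for 43094 of 43384 genes. In the deposited counts, an outer gene had at least the counts of a gene inside it in every library for 877 of 877 pairs on the same strand and 1300 of 1300 on opposite strands (inner gene with at least 1000 counts), although the kit keeps strand per the labels. Symbols and exons came from GENCODE M21 (55141 of 55401 IDs matched) and promoter windows from RefSeq.

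Counts were filtered with filterByExpr, scaled by TMM and fitted with edgeR 4.0.16 (R 4.3.3, robust quasi-likelihood, 1 coefficient per group, 20 residual degrees of freedom), with two-sided p and Benjamini-Hochberg adjustment per comparison. Correlations used log2 CPM with a prior count of 2 and 100000 permutations, or all orders within 6 libraries, in SciPy 1.17.1. Exact permutation tests ran over all 924 assignments. The edgeR fit was tested on simulated data. The closest of 60 library pairs within groups had a chi-square per degree of freedom of 3.22, over genes with at least 20 counts, so none was a copy.

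Alternatives were RLE scaling, library size alone, no filter, DESeq2 1.42.0, the replicate number as a block, marker covariates, leaving out each library and, chosen after seeing the data, both covariates together and leaving out SNI Gfp libraries 4 and 6 together. Named genes were the members, genes overlapping them, Slc17a7, Ppp1r1b, the genes most like each member, and, from the lists of regulators and targets, those past the threshold or else the 2 smallest p. The members and lists were chosen with earlier results of these data known.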

Additional observations from a re-analysis of the deposited data

Results flagged for a closer look

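Of 24 sets of 6 libraries, 1 for each MEF2 gene and marker in each group, 3 held a library far from the rest, where chance gives about 1 in 20, and all 3 concerned the markers. Slc17a7 stood at 558.0 CPM in SNI Gfp library 4, with the next library at 68.8 and the lowest at 1.60. In log2 CPM these were 9.12, 6.11 and 0.735, where the gap fell short of that share. In SNI Mef2c library 1 Slc17a7 stood at 1174.7 CPM, with the next at 228.3 and the lowest at 4.10, a gap that also fell short in log2 CPM. SNI Mef2c library 1 also had the lowest Ppp1r1b of its group, 315.5 CPM against 633.2 in the next. In log2 CPM these were 8.30 and 9.31, with the highest at 9.51, and this gap exceeds that share on either scale. In that library Mef2c stood at 747.6 CPM and Mef2d at 327.8, inside the range of the other SNI Mef2c libraries for Mef2d. No MEF2 gene was marked in any group.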

How the results depend on the processing

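Mef2c kept its call for the vector in SNI mice in every alternative fit except the one without both SNI Gfp libraries 4 and 6, chosen after seeing the data, where it stood at 1.92 and 0 genes were called. In that fit SNI with the Gfp vector had 1870 calls and the interaction 1494, Mef2c among them (1.40). For SNI against sham with the Gfp vector, values near 0 changed sign, Mef2c to 0.17 with the Slc17a7 covariate, 0.11 with both covariates and 0.0159 with the replicate block, Mef2a to 0.0473 with the Slc17a7 covariate, and Mef2b to 0.00397 with RLE scaling, 0.00524 with DESeq2 and 0.0018 with the Ppp1r1b covariate. Mef2a for the vector in sham mice went to 0.00309 with the Slc17a7 covariate, and the interaction of Mef2d to -0.0763 with the Slc17a7 covariate and -0.073 with both. Unadjusted exact permutation passed Mef2d for the vector in SNI mice (0.18) and, for SNI with the Mef2c vector, Mef2a (0.18), Mef2c (1.45) and Mef2d (0.21), and DESeq2 passed Mef2c there (1.33). Genes called for the vector in SNI mice numbered 438 with DESeq2. For SNI with the Gfp vector they numbered 553 with DESeq2, 1343 with both covariates, 3 with the Slc17a7 and 2 with the Ppp1r1b covariate, and 1 each with RLE scaling, library size alone and the replicate block. DESeq2 called 13 for SNI with the Mef2c vector and 1 for the interaction. Leaving out single libraries gave 1731 to 3602 calls for the vector in sham mice, 1 to 379 in SNI mice, 0 to 1392 for SNI with the Gfp vector, 0 to 1 with the Mef2c vector and 0 to 269 for the interaction. Over the same fits, SNI with the Gfp vector gave -0.0902 to 0.00733 for Mef2a, -0.0187 to 0.0267 for Mef2b and -0.10 to 0.0718 for Mef2c, and SNI with the Mef2c vector 1.19 to 1.61 for Mef2c. Correlations over the Gfp libraries moved likewise, Mef2c with Slc17a7 between 0.58 and 0.805 (0.48 without the 2 farthest, 0.19 within Sham Gfp), Mef2c with Ppp1r1b between 0.45 and 0.71 (0.46 without the 2 farthest, 0.34 within Sham Gfp, 0.58 with library size alone), and Mef2d with Slc17a7 between 0.46 and 0.70 (0.85 within Sham Gfp, 0.92 within SNI Gfp, rho 0.67). Mef2a gave 0.80 with Slc17a7 within Sham Gfp and 0.75 with Ppp1r1b within SNI Gfp. Mef2b ranged from -0.30 to 0.078 with Slc17a7 (0.26 within SNI Gfp, rho 0.00699) and from -0.36 to 0.17 with Ppp1r1b (0.00472 within SNI Gfp). The cause of these changes was not tested. Same-numbered libraries did not deviate together (9 of 36 pairs over 0.1, median r -0.02, and 1 of 24 libraries correlated best with its own number). With the replicate block the vector gave 1935 calls in sham mice and 1 in SNI mice, and Mef2c stood at 1.82 there. Of the members, Mef2b had the fewest counts, 11286 over all libraries.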
